A study of Saccharomyces cerevisiae with 109 samples.

Results

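The 47 genes described here encode the small subunit processome of budding yeast, Saccharomyces cerevisiae, and were chosen by their ORF identifiers from the 6297 genes on the arrays. All 47 matched an entry of the RefSeq gene table. They were followed over 109 two-colour microarrays of cells exposed to heat, hydrogen peroxide or salt, or relieved from heat, in wild-type cells and in strains that lack the histone deacetylase Rpd3p or proteins that act with it. The values are log2 ratios, in most arrays of stressed over unstressed cells of one strain, so that a value of -1 is a halving of transcript abundance relative to that strain's own unstressed culture.

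Ribosome assembly starts in the nucleolus, where a long precursor RNA is transcribed and cut into the mature rRNAs. The small subunit processome is the large ribonucleoprotein particle that forms on the 5′ part of this precursor around the U3 small nucleolar RNA (snoRNA), folds it, and allows the cuts that release the 18S rRNA of the 40S subunit. Ribosome assembly genes as a group are known in yeast to fall in expression after many kinds of stress and to recover as cells adapt, and Rpd3p, which removes acetyl groups from histone tails, works in a large complex marked by Pho23p and a small complex marked by Rco1p.

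By role, the genes fell into 7 subunits of UTP-A (also called t-UTP), the subcomplex that binds the start of the precursor, 6 subunits of UTP-B, 2 of UTP-C, 5 proteins of the U3 snoRNP, 3 of the Mpp10 complex, 8 helicases, GTPases and other enzymes, and 16 other assembly factors. Each gene was measured on 96 to 109 arrays and 5 were measured on all 109. Single arrays held values for 34 to 47 of them.

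Wild type was BY4741, in which RPD3 was deleted to give rpd3Δ, and the histone strains RMY491 and NSY429 are a pair of their own. The rpd3 deletion (rpd3Δ) was tested in heat shock (9 arrays, with 9 of wild type), H2O2 (7 arrays, with 12 of wild type), NaCl (7 arrays, with 7 of wild type) and relief from heat (7 arrays, with 7 of wild type), and 3 arrays compared unstressed rpd3Δ with unstressed wild-type cells directly. In H2O2 there were also 7 arrays of pho23Δ, 7 of rco1Δ, 4 of ume6Δ (Ume6p is a DNA-binding protein that recruits Rpd3p), 3 of msn2Δ msn4Δ cells without the paired stress activators Msn2p and Msn4p, 3 of these cells with RPD3 also deleted (msn2/msn4/rpd3), and 3 each of strain RMY491, which carries on a plasmid only a histone H4 with lysines 5, 8, 12 and 16 changed to glutamine (H4KQ), and of NSY429, its control with plasmid-borne wild-type histones. Single arrays held rpd3Δ cells with an empty vector, with plasmid-borne RPD3 or with the catalytic-site allele rpd3 H150:151A, and 3 arrays each held wild-type cells given 10 µM trichostatin A (TSA), a deacetylase inhibitor, or the solvent DMSO before heat shock. Heat shock was a shift from 25 to 37 °C and relief was the reverse shift. H2O2 was given at 0.4 mM and NaCl at 0.75 M in the methods, against 0.7 M in the sample descriptions. The sources used here do not say how many independent clones of each deletion were used. Outside the 3 unstressed arrays each strain was compared with its own unstressed culture, so those ratios hold no information on a deletion's effect before stress.

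The deposited values were close to centred, with array means between -0.0017 and 0.00097 and medians over all genes between -0.128 and 0.160. The direction of the ratios was not stated in the sources used here and was taken as likely from the legends and design. The heat-shock gene SSA4, used as a direction check, was above 0 on 9 of 9 heat-shock, 12 of 12 H2O2 and 7 of 7 NaCl arrays of wild type and on 0 of 7 relief arrays. In unstressed cells RPD3 was measured on 1 array only, at -2.57 for rpd3Δ over wild type. UME6 was measured on 0 of 4 ume6Δ arrays. Other deleted genes did have values in their own deletion strain, namely RPD3 on 13 of 30 rpd3Δ arrays (-1.79 to 2.63), PHO23 on 7 of 7 pho23Δ arrays, RCO1 on 4 of 7 rco1Δ arrays, MSN2 on 1 of 3 msn2/msn4 arrays and MSN4 on 3 of 3 (0.44 to 1.52). These arrays compare a strain with itself, and what gives such values was not tested, so they do not check the labels. Replicates 1 and 2 of the unstressed arrays and replicates 1 and 2 of H4KQ differed by a median of 0.139 and 0.140 per gene, less than the 0.196 or more between any other replicates of one group. The paper describes its H2O2 data, H4KQ among them, as means of at least biological triplicates. For the unstressed arrays it gives triplicate measurement, and whether these share RNA is not stated. Why these pairs are close was not tested.

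In wild-type cells exposed to H2O2 the processome genes fell together. At 30 min the 47 means ran from -3.41 to -0.55 with a median of -2.33, against a median of 0.01 over all 5212 genes tested. In a fit across all genes with limma, with Benjamini-Hochberg adjusted p-values under 0.01, all 47 were lower, and 34.1% of all genes tested were lower.

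In rpd3Δ cells at the same time the fall was small. The median member stood at -0.32 ± 0.11 in rpd3Δ (SD, n = 3), or 1.25-fold lower than before stress, against -2.31 ± 0.61 in wild type (SD, n = 8), or 4.96-fold lower. The difference between rpd3Δ and wild type was above 0 for all 47 genes, with a range of 0.57 to 2.87 and a median of 1.90, against 0.02 over all genes. At an adjusted p under 0.05, 42 of the 47 were higher in rpd3Δ than in wild-type cells, where 14.2% of all genes tested were higher (limma). For 40 of the 47, every rpd3Δ array lay above every wild-type array, as was so for 15.1% of all genes tested. With arrays scaled to one spread (median absolute deviation) the median difference was 1.18. The log2 ratio in rpd3Δ averaged below -1 for 8 members, and in wild type for 46. In rpd3Δ, 29 members were below 0 on each array, against 47 in wild type, while MPP10 and UTP11 were above 0 on each rpd3Δ array.

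**Figure D1:**
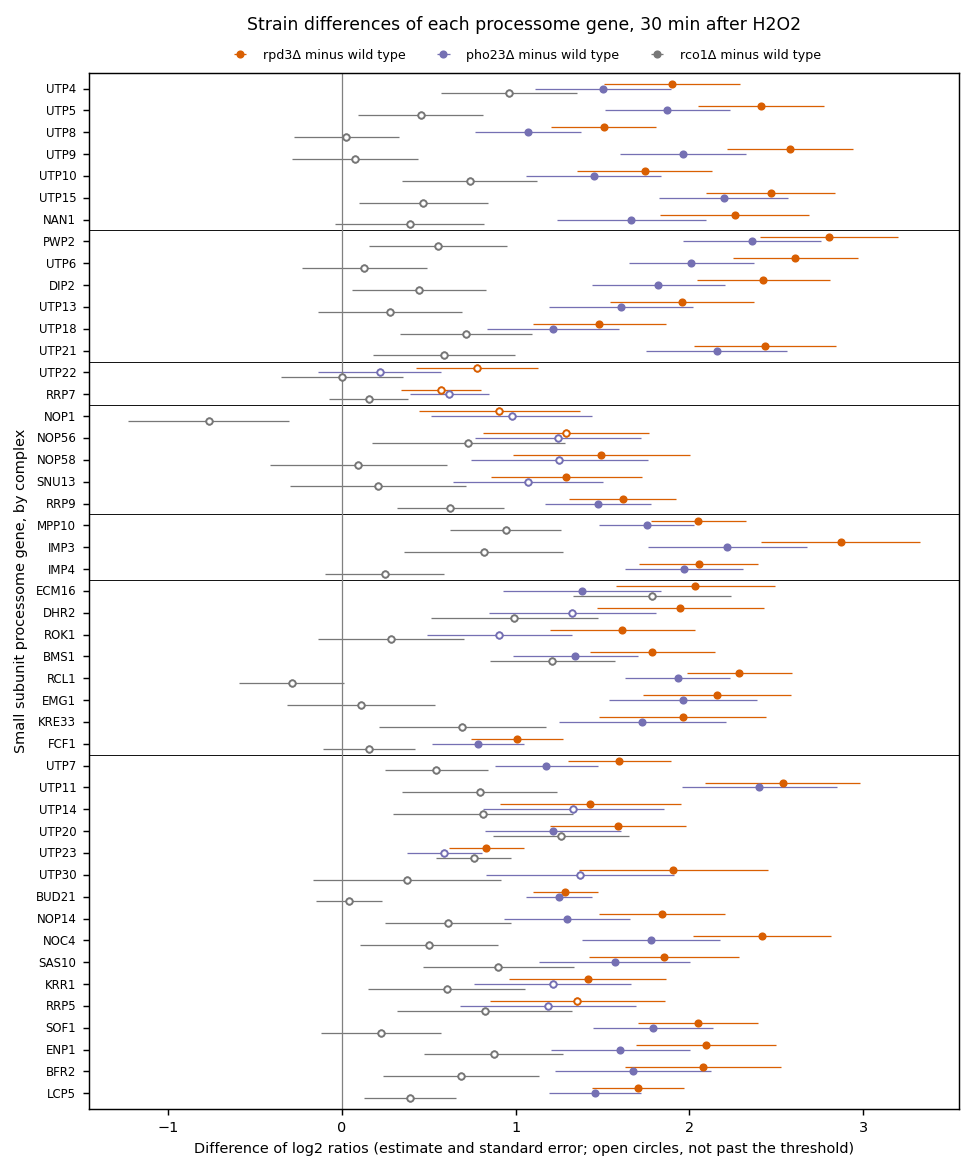
Each row is one of the 47 genes, ordered by role, and the horizontal axis is the difference in log2 ratio from wild type at 30 min of H2O2 (points, estimates; bars, standard errors; open circles, adjusted p of 0.05 or more) for rpd3Δ, pho23Δ and rco1Δ. The rpd3Δ estimates run from 0.57 to 2.87, the pho23Δ estimates from 0.22 to 2.40, and the rco1Δ estimates from -0.77 to 1.79 with none called.

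The subcomplexes that bind the precursor first had large differences. In UTP-A, all 7 subunits passed the test, with a median difference of 2.26. UTP10 (YJL109C), its largest subunit, had -1.02, -0.95 and -1.08 in rpd3Δ cells, against a lowest value of -3.31, a median of -2.95 and a highest of -1.17 on 7 wild-type arrays. The rpd3Δ values all lay above the highest wild-type value, by a small margin, and the difference was 1.74 ± 0.39 (SE, adjusted p = 0.0024). In UTP-B, which joins after UTP-A and contacts the U3 snoRNA, all 6 subunits passed, with a median of 2.43. PWP2 (YCR057C), a scaffold of UTP-B built of beta-propellers, had -0.34, -0.02 and 0.04 in rpd3Δ cells, against -3.62, -3.21 and -1.37 (lowest, median and highest of 7) in wild type. The rpd3Δ arrays were near the unstressed level and did not overlap the wild-type arrays (difference 2.80 ± 0.40, adjusted p = 2.9e-05). UTP6 (YDR449C), another UTP-B subunit, had -0.18, 0.07 and 0.40 in rpd3Δ, against -3.21, -2.65 and -1.42 (lowest, median and highest of 8) in wild type, with a difference of 2.61 ± 0.36 (adjusted p = 2e-05) and no overlap.

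UTP-C, a small module that also contains casein kinase 2 subunits, stood apart from these. Neither of its 2 members passed the test. UTP22 (YGR090W), a UTP-C scaffold, had -1.66, -0.69 and -0.78 in rpd3Δ cells, against -2.48, -1.76 and -1.28 (lowest, median and highest of 8) in wild type. Its lowest rpd3Δ array lay within the wild-type range, and the difference was 0.78 ± 0.35 (adjusted p = 0.115). RRP7 (YCL031C), the partner of UTP22, had -0.07, -0.02 and 0.15 in rpd3Δ and -1.02, -0.51 and -0.06 (lowest, median and highest of 7) in wild type, so its values were nearer 0 in both strains than those of UTP22 (difference 0.57 ± 0.23, adjusted p = 0.0726). The 3 casein kinase 2 subunits tested had a median of 0.18 in wild type, where CKA1 was higher, and a median difference of 0.26 between rpd3Δ and wild type, with none called.

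The proteins of the U3 snoRNP had the lowest median in rpd3Δ cells among the 7 roles. Their median was -1.38 in rpd3Δ, against -2.69 in wild type, while the UTP-B median was -0.18 in rpd3Δ and -2.60 in wild type. These differences between roles were not tested. Of the 5 proteins, 3 passed the test, with a median difference of 1.29 over all 5. NOP1 (YDL014W), the fibrillarin homologue that methylates rRNA, had -1.59, -1.74 and -2.04 in rpd3Δ, against -3.70, -2.80 and -1.63 (lowest, median and highest of 8) in wild type. The groups overlapped, and the difference of 0.91 ± 0.46 did not pass (adjusted p = 0.168). SNU13 (YEL026W), which binds the U3 snoRNA and is shared with the spliceosome, had -2.02, -2.09 and -2.26 in rpd3Δ, against -4.24, -3.53 and -2.52 (lowest, median and highest of 8) in wild type. Its groups did not overlap (difference 1.29 ± 0.43, adjusted p = 0.032).

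The Mpp10 complex, a clamp that holds U3 on the precursor, was near the unstressed level in rpd3Δ, with a median of 0.04 there and -2.12 in wild type, and all 3 of its genes passed. MPP10 (YJR002W) had 0.08, 0.27 and 0.29 in rpd3Δ, against -2.32, -1.94 and -0.93 (lowest, median and highest of 8) in wild type. It was above 0 on each rpd3Δ array and below 0 on each wild-type array (difference 2.05 ± 0.27, adjusted p = 1.9e-05). IMP3 (YHR148W), which binds both Mpp10p and U3, had 0.06, 0.12 and -0.07 in rpd3Δ, against -3.58, -2.97 and -1.49 (lowest, median and highest of 6) in wild type. Its difference of 2.87 ± 0.46 was the largest of the 47 (adjusted p = 0.00014).

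All 8 enzymes passed, with a median difference of 1.95. ECM16 (YMR128W) encodes the DEAH-box helicase Dhr1p, which unwinds U3 from the precursor, and had -0.46, -0.17 and -0.06 in rpd3Δ, against -3.32, -2.35 and -0.72 (lowest, median and highest of 6) in wild type. BMS1 (YPL217C), the GTPase of the particle, had -0.48, -0.58 and -0.32 in rpd3Δ, against -3.05, -2.32 and -0.91 (lowest, median and highest of 8) in wild type. KRE33 (YNL132W), an RNA cytidine acetyltransferase, had -0.90, -0.77 and -0.97 in rpd3Δ, against -3.96, -2.96 and -0.79 (lowest, median and highest of 8) in wild type. ECM16 and BMS1 were separate between strains (differences 2.03 ± 0.46 and 1.79 ± 0.36, adjusted p = 0.0026 and 0.00088), whereas the highest wild-type array of KRE33 lay among the rpd3Δ arrays (difference 1.96 ± 0.48, adjusted p = 0.0046).

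Of the 16 other assembly factors, 15 passed, with a median difference of 1.77. UTP20 (YBL004W), a very large scaffold protein, had -1.25, -1.22 and -1.31 in rpd3Δ, against -3.46, -2.98 and -1.35 (lowest, median and highest of 8) in wild type (difference 1.59 ± 0.39, adjusted p = 0.0043). ENP1 (YBR247C), which stays with the particle into the later pre-40S stage, had -0.74, -0.28 and -0.52 in rpd3Δ, against -3.40, -2.62 and -1.26 (lowest, median and highest of 8) in wild type (difference 2.09 ± 0.40, adjusted p = 0.00052). In both the rpd3Δ arrays lay above all wild-type arrays. UTP23 (YOR004W), a factor bound to another snoRNA, had -0.55, -0.60 and -0.74 in rpd3Δ, against -1.86, -1.47 and -1.04 (lowest, median and highest of 8) in wild type, a smaller difference of 0.83 ± 0.22 that also passed (adjusted p = 0.0062) with no overlap. RRP5 (YMR229C), a protein needed for both ribosomal subunits, had -1.18, -0.94 and -1.09 in rpd3Δ, against -3.80, -2.47 and -0.68 (lowest, median and highest of 8) in wild type. The groups overlapped, and its difference of 1.36 ± 0.51 missed the threshold (adjusted p = 0.0538), as did that of NOP56, a core box C/D snoRNP protein, at 1.29 (adjusted p = 0.0516). Of 30 other factors of 40S assembly, 25 were higher in rpd3Δ than in wild type (14.2% of all genes), with a median difference of 1.80.

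**Figure D2:**
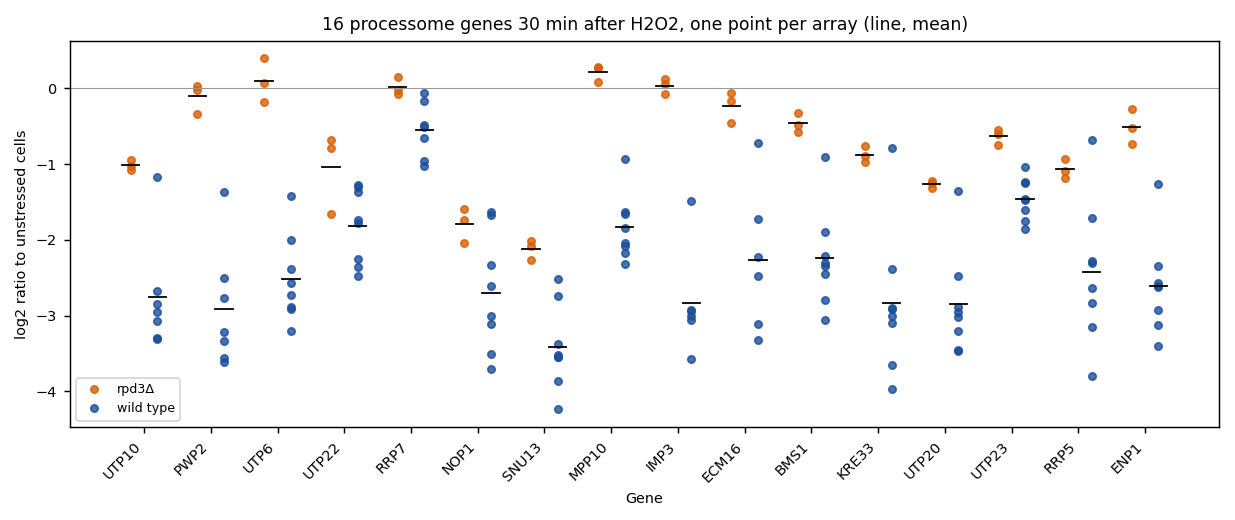
Log2 ratio at 30 min of H2O2 on each array for 16 named genes, rpd3Δ on the left and wild type on the right of each panel (points, arrays; bars, means). PWP2, UTP6, MPP10 and IMP3 are near 0 in rpd3Δ and between -3.62 and -0.93 in wild type, while NOP1 overlaps between the strains.

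The 3 unstressed arrays asked whether the deletion moved these genes before stress. Of 40 members tested on rpd3Δ over wild type, 0 were called by limma, where 3.5% of all genes were called in either direction, and 6 members had an unadjusted p under 0.05. Here and below, a share of genes called refers to the adjusted threshold, and no such share is given for counts at an unadjusted p. The means were split evenly, 20 above and 20 below 0, with a median of -0.03 and a range of -0.62 to 0.62. The 5 U3 snoRNP genes were all below 0, with a median of -0.42, and NOP1 had -0.16, -0.36 and -0.98. Leaving out replicate 3 gave 4 calls. UTP5, UTP7, UTP11, UTP15, IMP3, IMP4 and DIP2 were not measured often enough to be tested here. With the unstressed ratio added to the difference at 30 min, the median over the 40 genes was 1.89, against 1.81 without it, and the range was 0.40 to 2.66.

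The other strains at 30 min of H2O2 asked which Rpd3p complex and which partner the processome genes depended on. The median member stood at -0.73 ± 0.14 in pho23Δ (SD, n = 3) and at -1.77 ± 0.45 in rco1Δ (n = 3), against -2.31 ± 0.61 in wild type (n = 8). In pho23Δ, 34 of 47 genes were higher than in wild type, where 9.81% of all genes were higher, with a median difference of 1.46 (0.83 with arrays scaled to one spread) and a range of 0.22 to 2.40. For 26 of the 47 each pho23Δ array lay above every wild-type array, against 10.0% of all genes, while this held in rco1Δ for 2 of 47, against 2.05% of all genes. In rco1Δ 0 of 47 were called by limma, with 8 at an unadjusted p under 0.05 and 0.345% of all genes higher, and the median difference was 0.54 (range -0.77 to 1.79, 44 of 47 above 0). The number called in pho23Δ was 20 without its replicate 1 and 44 without wild-type replicate 8, and 3 genes were called in rco1Δ without wild-type replicate 8.

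Within UTP-B, PWP2 had -0.40, -0.59 and -0.67 in pho23Δ and -1.69, -2.69 and -2.68 in rco1Δ, beside the lowest, median and highest of -3.62, -3.21 and -1.37 in wild type. The pho23Δ arrays were above all wild-type arrays and the rco1Δ arrays were among them, with differences of 2.36 ± 0.40 (adjusted p = 0.0004) and 0.55 ± 0.40 (adjusted p = 0.71). The U3 snoRNP proteins NOP1, NOP56, NOP58 and SNU13 did not pass in pho23Δ, with differences of 0.98 to 1.25. The direct comparison of deletions gave 21 of 47 genes lower in rco1Δ than in rpd3Δ, where 8.48% of all genes were lower, with a median of -1.27. The difference was -2.48 for UTP6 (adjusted p = 0.00081), -2.25 for PWP2 (adjusted p = 0.0034) and -2.06 for IMP3 (adjusted p = 0.014). These genes are those with the 3 largest differences of rpd3Δ from wild type. The same rpd3Δ arrays enter both comparisons, so these values are not independent of that choice. RCL1 at -2.58 and UTP9 at -2.51 were further apart. Between pho23Δ and rpd3Δ 0 were called, with 0 at an unadjusted p under 0.05 and 0.115% of all genes called in either direction, at a median difference of -0.30.

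In ume6Δ the median member stood at -1.58 ± 0.82 (SD, n = 4). Its difference from wild type had a median of 0.73, with 0 genes called, where 0.211% of all genes were higher. At an unadjusted p under 0.05 there were 24 members, with no share of all genes to set beside them. No member had all ume6Δ arrays above all wild-type arrays (0 of 47, 0.531% of all genes). Replicate 4 of ume6Δ was high for these genes. PWP2 had -2.27, -1.995, -2.66 and -0.59 on the 4 arrays, the last being replicate 4, and without that array the group stood at -1.98 ± 0.21 and the median difference was 0.32. The count was 8 without wild-type replicate 8 and 4 without ume6Δ replicate 1.

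In cells without MSN2 and MSN4 the genes were still well below 0. The median member was -1.74 ± 0.55 in msn2/msn4 cells (SD, n = 3), and its difference from wild type was 0.43, with 0 called, 10 at an unadjusted p under 0.05 and 1.5% of all genes higher, and 0 of 43 had all arrays above all wild-type arrays, against 3.04% of all genes. The count was 6 without wild-type replicate 8 and 4 without msn2/msn4 replicate 1. With RPD3 also deleted the median member was -0.26 ± 0.10 (n = 3). In this triple mutant 45 of 47 genes were higher than in wild type (16.6% of all genes), with a median of 1.98 (1.24 with arrays scaled to one spread), and UTP22 at 0.41 and NOP1 at 1.09 did not pass. All triple-mutant arrays lay above all wild-type arrays for 36 of 46 members, against 15.3% of all genes. Against msn2/msn4 cells 22 were higher (6.22% of all genes), with a median of 1.41, and this count was 8, 14 and 11 without replicates 1, 2 and 3 of the triple mutant and 9 without msn2/msn4 replicate 1. Between the triple mutant and rpd3Δ 0 were called, with 0 at an unadjusted p under 0.05 and 0.269% of all genes in either direction, at a median difference of 0.06. The test of whether the RPD3 deletion acted differently with and without MSN2 and MSN4 called 0 members and 0.0% of all genes, with 0 at an unadjusted p under 0.05 and a median of -0.37.

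The H4KQ strain was set against NSY429, its own control. The median member was -0.60 ± 0.23 in H4KQ cells and -1.48 ± 0.04 in NSY429 cells (SD, n = 3 each). Of 44 genes tested, 42 had a difference above 0, with a median of 0.81 and a range of -0.20 to 1.44, against 0.04 over all genes. None passed the adjusted threshold in limma (0 of 44, where 0.0196% of all genes were higher). At an unadjusted p under 0.05 there were 31, with no share of all genes to set beside them. By arrays, 31 of 44 had all H4KQ arrays above all NSY429 arrays, against 13.3% of all genes. PWP2 had -0.74, -0.59 and -0.47 in H4KQ, against -1.91, -1.49 and -2.60 in NSY429, without overlap (1.4 ± 0.31, adjusted p = 0.122). NOP1 had -1.73, -1.98 and -2.51 in H4KQ and -2.06, -2.17 and -1.39 in NSY429, with a difference of -0.20 (adjusted p = 0.815).

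**Figure D3:**
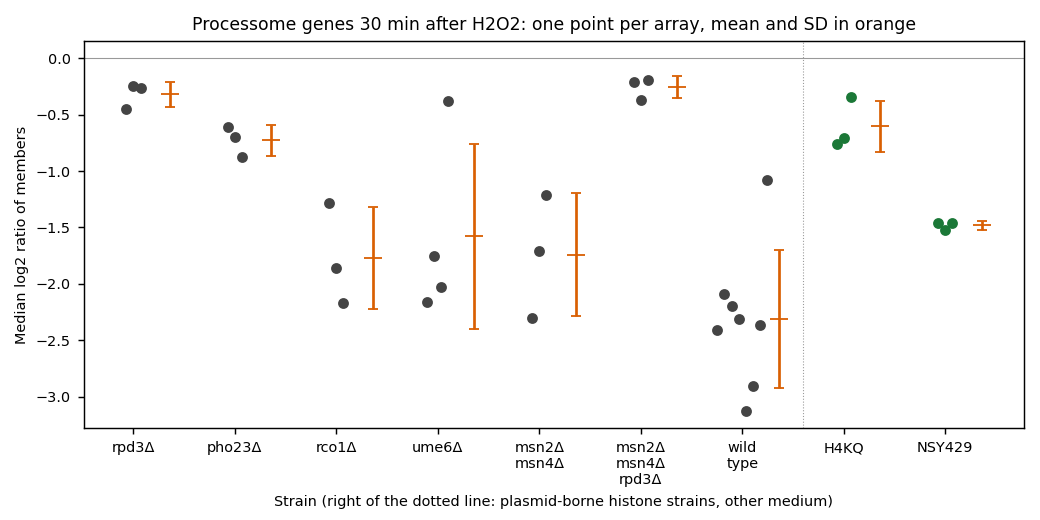
Median log2 ratio of the 47 genes on each array at 30 min of H2O2, by strain (points, arrays; bars, mean ± SD). The group means are -0.32 in rpd3Δ, -0.73 in pho23Δ, -1.77 in rco1Δ, -1.58 in ume6Δ, -1.74 in msn2/msn4, -0.26 in msn2/msn4/rpd3 and -2.31 in wild type, and -0.60 in H4KQ and -1.48 in NSY429, and single arrays of H4KQ (-0.34) and ume6Δ (-0.38) lie within the rpd3Δ range.

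The H2O2 time courses showed when the strains differed. The array medians at 10, 20, 30, 40 and 60 min were -0.09, -0.35, -0.45, -0.35 and -0.35 in rpd3Δ, against -0.67, -1.76, -2.41, -2.10 and -0.60 in wild type. The fall in wild type was transient, with 34 of 46 members lowest at 30 min, and the rpd3Δ course stayed shallow. In pho23Δ the medians were -0.19, -0.57, -0.61, -0.53 and -0.55 at these times, close in shape to rpd3Δ. In rco1Δ they were -0.15, -0.50, -1.28, -1.71 and -2.10, a fall that went on at 60 min, when wild type had largely recovered. The course arrays of pho23Δ and rco1Δ all had the opposite dye orientation to those of rpd3Δ and wild type. At 10, 20, 40 and 60 min their differences from wild type therefore cannot be told apart from dye orientation. In rco1Δ 22 of 39 members were lowest at 60 min and 16 at 40 min.

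Over the course, 47 of 47 members were lower in wild type (31.3% of all genes). This fit had 1 array per strain at each time but 30 min. Its spread therefore came only from the 30 min arrays, which the 30 min test above also used. The course test is thus not independent of the 30 min test. Members higher than wild type numbered 37 in rpd3Δ (10.0% of all genes, median 1.13), 29 in pho23Δ (9.82%, median 0.95) and 0 in rco1Δ (1.78%, median 0.23). The rco1Δ count was 15 without wild-type replicate 8 at 30 min and 10 with arrays scaled to one spread, and its median was -0.09 without the 20 min array of either strain, so neither its count nor its sign was stable. On the arrays of the course itself, 1 per strain and time, the median difference of rco1Δ from wild type was 0.47, 1.19, 0.82, 0.02 and -1.47 at the 5 times (0.54 at 30 min over all 3 rco1Δ and 8 wild-type arrays). It changed sign, and at 60 min 40 of 42 members were lower in rco1Δ than in wild type. The corresponding pho23Δ differences were 0.37, 1.19, 1.62, 1.37 and 0.01 (1.46 at 30 min over all 3 pho23Δ arrays). In both deletion strains these course arrays also differed from those of wild type in dye orientation.

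NOP1 followed this course at a deeper level. It had -0.56, -1.64, -2.62, -3.37 and -3.96 in rco1Δ and -0.61, -1.31, -1.59, -1.57 and -1.27 in rpd3Δ, against -0.97, -2.65, -3.001, -3.06 and -1.29 in wild type. SNU13 had -0.25, -1.53, -2.55, -3.52 and -4.14 in rco1Δ, -1.03, -1.72, -2.47, -2.55 and -2.50 in pho23Δ and -0.62, -1.59, -2.02, -2.13 and -1.86 in rpd3Δ, against -1.32, -2.91, -3.37, -3.02 and -0.93 in wild type. For both genes rco1Δ reached its lowest value at 60 min, where the wild-type value was among the highest of its course. KRE33 had -0.43, -0.69, -0.90, -0.82 and -0.78 in rpd3Δ, against -0.63, -1.84, -3.001, -2.89 and -1.06 in wild type, and was higher in rpd3Δ at each of the 5 times.

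**Figure D4:**
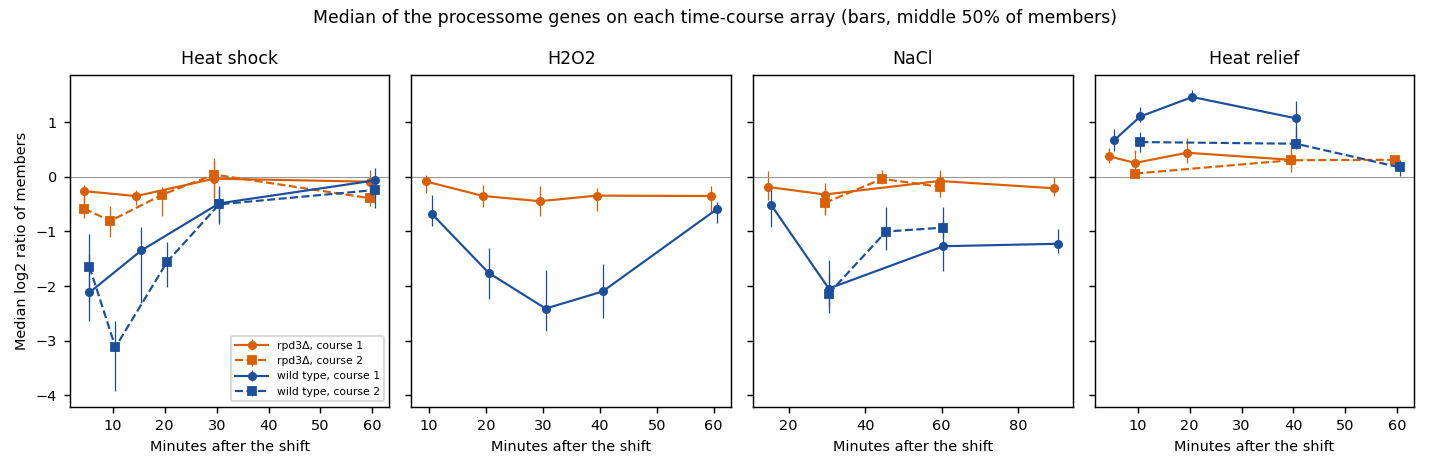
Median log2 ratio of the 47 genes (points) with the interquartile range of the genes (bars) against minutes, for each time course of rpd3Δ and wild type. The rpd3Δ courses stay nearer 0 (lowest array medians -0.81 in heat shock, -0.45 in H2O2 and -0.48 in NaCl). Wild type reaches -3.12 at 10 min of heat shock, -2.41 at 30 min of H2O2 and -2.14 at 30 min of NaCl.

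Heat shock gave an earlier fall in wild type. At 5, 15, 30 and 60 min of the first course the array medians were -0.26, -0.35, -0.04 and -0.09 in rpd3Δ, against -2.12, -1.35, -0.49 and -0.07 in wild type. At 5, 10, 20, 30 and 60 min of the second they were -0.58, -0.81, -0.33, 0.04 and -0.39 in rpd3Δ, against -1.65, -3.12, -1.55, -0.50 and -0.24 in wild type. In wild type 32 of 45 members were lowest at 5 min in the first course, and 30 of 34 at 10 min in the second. The unstressed culture behind the rpd3Δ arrays of the second course is labelled 30 °C, while that of wild type is labelled 25 °C, so strain and that temperature cannot be told apart in that course.

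Of 42 members tested, 39 were lower in wild type (12% of all 4547 genes), with a median over the times of -1.43 against -0.01 for all genes. RRP7 at -0.71 (adjusted p = 0.0105), FCF1 at -0.80 (adjusted p = 0.0107) and LCP5 at -0.09 (adjusted p = 0.402) were not called. NOP58, NAN1, BMS1, BUD21 and UTP23 had too few values to be tested. All 6 tested UTP-A, 6 UTP-B, 4 U3 snoRNP and 3 Mpp10 genes were called, with medians of -1.55, -1.63, -1.82 and -1.42. Among other 40S assembly factors 13 of 24 were called (12% of all genes), with a median of -1.02.

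Between rpd3Δ and wild type all 42 differences in heat shock were above 0, with a median of 1.09 and a range of 0.39 to 1.94. At the adjusted threshold 13 of the 42 were higher in rpd3Δ (1.25% of all genes), and 36 had an unadjusted p under 0.05. The 13 were UTP9 and UTP15 of UTP-A, PWP2, DIP2, UTP13 and UTP21 of UTP-B, NOP56 and RRP9 of the U3 snoRNP, IMP4 of the Mpp10 complex, the enzymes RCL1 and KRE33, and NOC4 and RRP5. The count was 0 without the 10 min array of either strain, 1 without the 5 min array of wild type in the first course or of rpd3Δ in either course, 2 without the 5 min wild-type array of the second course, 7 without the 60 min rpd3Δ array of either course or the 30 min wild-type array of the first, and 23 without the 30 min rpd3Δ array of the first. The first course alone gave 7 calls, the second alone 0, and scaling the arrays to one spread 0, while a test of the mean over times in place of the F test gave 33. The 1.25% of all genes belongs to the main fit, and no share is given for these other settings.

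KRE33 had -0.22, -0.35, 0.48 and 0.13 at 5, 15, 30 and 60 min in rpd3Δ, against -2.62, -1.24, -0.77 and -0.81 in wild type, in the first course. In the second course it had -0.69, -1.46, -0.31, -0.15 and -0.70 at 5, 10, 20, 30 and 60 min in rpd3Δ, against -2.05, -4.77, -3.59, -1.54 and -0.998 in wild type. The rpd3Δ value was the higher at all 9 matched times, with a mean difference of 1.88 ± 0.21. Its adjusted p was 0.0184 by the F test over time points and 0.00121 by the test of the mean over times. IMP4, which binds Mpp10p, had -0.18, -0.24, -0.20 and -0.13 in rpd3Δ, against -1.87, -1.20, -0.66 and 0.34 in wild type, in the first course, and -0.37, -0.51, -0.21, -0.23 and -0.42 in rpd3Δ, against -2.64, -2.90, -1.50, -1.02 and -0.07 in wild type, in the second. The 2 strains were apart up to 30 min and wild type was the higher at 60 min, with a mean difference of 1.14 ± 0.17. The adjusted p of IMP4 was 0.0331 by the F test and 0.00258 by the test of the mean over times. UTP9 had -0.55, -0.48, -0.35 and -0.30 in rpd3Δ, against -3.96, -2.40, 0.01 and 0.13 in wild type, in the first course, so its difference lay at 5 and 15 min.

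NOC4, a partner of NOP14, had -0.26, -0.36, 0.33 and 0.02 in rpd3Δ, against -2.07, -0.88, -0.47 and 0.08 in wild type, in the first course, and -0.34, -0.28, 0.17, -0.51 and -0.08 in rpd3Δ, against -2.20, -3.93, -2.07, -0.83 and 0.07 in wild type, in the second. PWP2 lacked rpd3Δ values at 5 and 15 min of the first course, and its estimate of 1.94 ± 0.25 (F test, adjusted p = 0.0309) rests on the times that both strains have. UTP21, another beta-propeller protein of UTP-B, had 2.37 on the 20 min wild-type array, where its other early wild-type values were -4.81 to -2.32, and -0.29 in rpd3Δ at that time, against the direction of its other early differences. The F test takes in that time point too. Without the 20 min wild-type array the difference of UTP21 was 1.63, against 0.91 with it, and it was still called (adjusted p = 0.00864), while RRP5 was not (0.77, adjusted p = 0.191). By matched time the median difference of rpd3Δ from wild type was 1.74, 0.98, 0.45 and -0.07 in the first course and 1.16, 2.36, 1.24, 0.60 and -0.08 in the second, so that the strains met at 60 min in both.

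**Figure D5:**
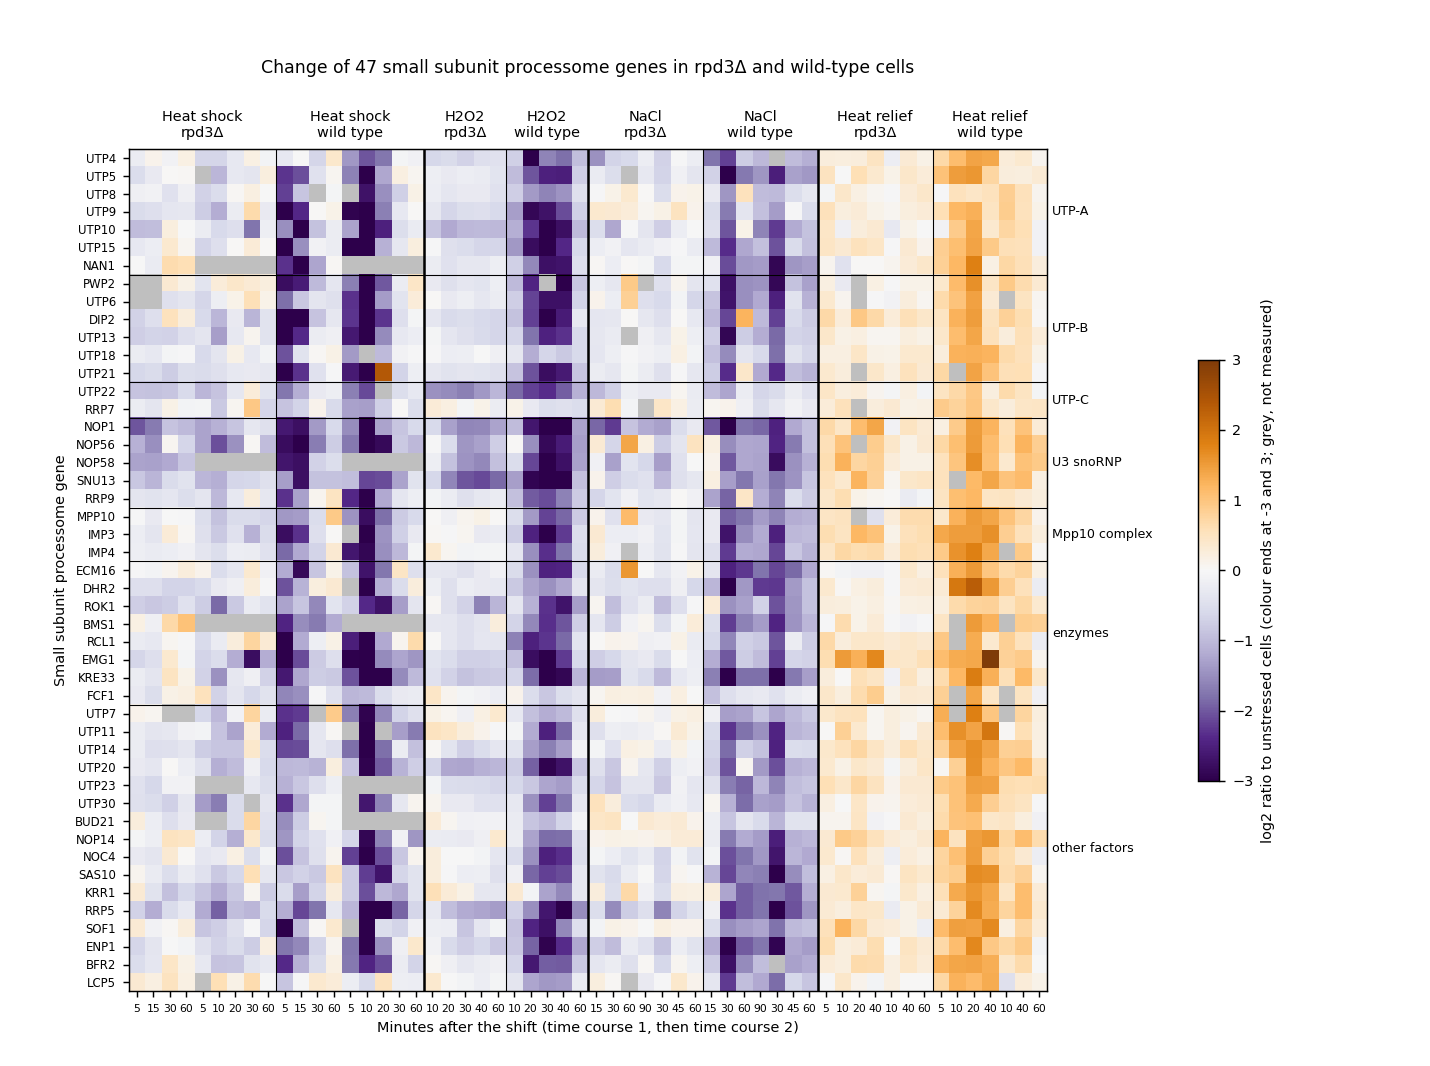
Log2 ratio of the 47 genes (rows, by role) on the arrays of the time courses (columns, minutes), rpd3Δ to the left of wild type for each stress (colour, log2 ratio; grey, not measured). The rpd3Δ columns are mostly pale. Wild-type columns are lowest at 5 or 10 min of heat shock and at 30 min of H2O2 and NaCl. In relief they are mostly above 0, with a median of 0.17 at 60 min.

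NaCl gave a fall in wild type that was lowest at 30 min for 41 of 47 members in the first course and 44 of 45 in the second. At 15, 30, 60 and 90 min of the first course the array medians were -0.19, -0.33, -0.08 and -0.21 in rpd3Δ, against -0.52, -2.04, -1.27 and -1.23 in wild type. At 30, 45 and 60 min of the second they were -0.48, -0.04 and -0.18 in rpd3Δ, against -2.14, -1.002 and -0.93 in wild type. Over the courses 42 of 47 members were lower in wild type (14.6% of 5003 genes), with a median of -1.16, and the count was 27 without the 30 min wild-type array of the first course. UTP8 at -0.57, DIP2 at -0.90, UTP22 at -0.62, RRP7 at -0.19 and FCF1 at -0.42 were not called.

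All 47 were above 0 in the difference of rpd3Δ from wild type in NaCl, with a median of 0.97 and a range of 0.23 to 1.63. At the adjusted threshold 21 were higher in rpd3Δ (2.16% of all genes) and 40 had an unadjusted p under 0.05. With the replicate number as a block the count was 10, with arrays scaled to one spread it was 0, in the first course alone 0 and in the second alone 33, and with the mean over times 36. It was 0 without a 30 min array of either strain in either course or without the 60 min rpd3Δ array of the first course, 9 without the 60 min wild-type array of the first, and 13 without the 60 min rpd3Δ array of the second. The 2.16% of all genes belongs to the main fit, and no share is given for these other settings. By role, 3 of 7 UTP-A, 1 of 6 UTP-B, 0 of 2 UTP-C, 0 of 5 U3 snoRNP, 2 of 3 Mpp10 genes, 5 of 8 enzymes and 10 of 16 other factors were called. Of the other 40S assembly factors 12 of 30 were higher (2.16% of all genes), with a median of 1.00.

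IMP3 had 0.34, -0.21, -0.21 and -0.13 at 15, 30, 60 and 90 min in rpd3Δ, against -0.27, -2.69, -1.51 and -1.18 in wild type, in the first course. In the second course it had -0.39, -0.07 and -0.33 at 30, 45 and 60 min in rpd3Δ, against -2.51, -1.01 and -0.97 in wild type. The rpd3Δ value was the higher at all 7 matched times (mean difference 1.18 ± 0.14, adjusted p = 0.0269 by the F test over time points, as for the genes below). KRE33 had -1.34, -1.32, -0.38 and -0.58 in rpd3Δ, against -1.66, -3.62, -1.81 and -1.82 in wild type, in the first course, and -0.998, -0.30 and -0.18 in rpd3Δ, against -3.69, -1.71 and -1.32 in wild type, in the second (1.35 ± 0.14, adjusted p = 0.023). NOP14, a core factor that binds Noc4p and Emg1p, stayed above 0 on the 7 rpd3Δ arrays (0.11 to 0.29) and below 0 on the 7 wild-type arrays (-2.53 to -0.23), with a difference of 1.36 ± 0.16 (adjusted p = 0.0289). ENP1 had -0.97 and -0.90 at 30 min in rpd3Δ, against -3.26 and -2.93 in wild type (over all times 1.25 ± 0.15, adjusted p = 0.0275). SNU13 differed by 0.66 ± 0.19 and was not called (adjusted p = 0.297).

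On relief from heat the array medians lay above 0 in both strains. At 5, 10, 20 and 40 min of the first course the array medians were 0.37, 0.25, 0.44 and 0.31 in rpd3Δ, against 0.67, 1.10, 1.46 and 1.07 in wild type. At 10, 40 and 60 min of the second they were 0.06, 0.30 and 0.31 in rpd3Δ, against 0.63, 0.60 and 0.17 in wild type. All 47 members averaged above 0 in wild type, with a median of 0.83 and a range of 0.35 to 1.18. None passed the threshold of 0.01 in limma (0 of 47, where 0.0% of 5330 genes were higher). At an unadjusted p under 0.05 there were 45, with no share of all genes to set beside them. The difference of rpd3Δ from wild type was below 0 for all 47, with a median of -0.46, a range of -0.92 to -0.12 and 0.00 over all genes, though NOP1 turned to 0.10 with arrays scaled to one spread, and 0 were called (0.0% of all genes), with 16 at an unadjusted p under 0.05. KRE33 had 0.25, 0.00, 0.57 and 0.46 in rpd3Δ, against 0.65, 1.18, 1.86 and 1.27 in wild type, in the first course. The second course gave -0.13, 0.51 and 0.19 in rpd3Δ, against 0.58, 1.15 and 0.41 in wild type. KRE33 was thus lower in rpd3Δ at all 7 times, with a mean difference of -0.72 ± 0.15. Its adjusted p of 0.849 is from the F test over time points, which does not test that mean. BMS1 had 0.13 and 0.29 at 20 and 40 min of the first course in rpd3Δ, against 1.51 and 1.25 in wild type.

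The inhibitor and the plasmid alleles were each measured on 1 array per condition, so no test applies. Among wild-type cells in heat shock, the median member was -1.50 with TSA and -1.65 with DMSO at 5 min, and the member-wise difference had a median of 0.33, with 36 of 45 higher. At 15 min the median was -1.87 with TSA and -2.80 with DMSO, with a median difference of 0.70 and 45 of 47 higher. At 30 min the median difference was 0.01, with 24 higher and 23 lower. At 15 min 15 members were higher by over 1, as were 3.04% of all genes, and the spread of the whole array, as the median absolute deviation, was 0.43 with TSA and 0.58 with DMSO. With arrays scaled to one spread the 15 min difference was 0.04.

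In rpd3Δ cells carrying plasmids, most of the genes were higher with the catalytic allele than with the RPD3 plasmid. The paper gives SC-leucine as the medium of the catalytic-allele experiments, where YPD was its usual medium. After 20 min of heat shock the median member was -0.35 with rpd3 H150:151A and -0.54 with the empty vector, against -1.39 with RPD3. The catalytic allele was higher than RPD3 in 46 members, with a median difference of 0.87 and 19 higher by over 1 (3.92% of all genes), and the empty vector was higher in 38 of 40, with a median of 0.60. After 30 min of H2O2 the median was -0.72 with the catalytic allele and -1.86 with RPD3. There 45 of 47 members were higher, with a median difference of 1.12 and 29 higher by over 1 (9.57% of all genes). The median difference over all genes was 0.19 in this pair and 0.04 in the heat-shock pair. EMG1, a methyltransferase, had the lowest difference in H2O2 at -1.01. With arrays scaled to one spread the differences were 0.53 in heat shock and 0.46 in H2O2.

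Across all arrays the members varied alike to unequal degrees. The correlation of each gene with the median of the other members, over up to 109 arrays that share strains and cultures, ran from 0.73 to 0.96 with a median of 0.90, and 21 genes were over 0.9. RRP7 and UTP22, the UTP-C members, were the lowest at 0.73. UTP5, a UTP-A subunit, was at 0.96. No 2 members were neighbours in the RefSeq gene order.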

How the data were processed

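The authors hybridised the 109 samples to two-colour arrays, scanned them and deposited log2 ratios of the channels; the filter, background correction and normalization are not given in the sources used here. Deposited values were used unchanged, and the number of arrays limits the precision. Of 6297 gene identifiers, 5832 matched the RefSeq table of the R64 assembly. The members and the gene lists were chosen with earlier results of these data known. Genes with values on fewer than 80% of a fit's arrays were not tested. Each gene was fitted by least squares on strain and time, with variances moderated in limma (version 3.58.1, R 4.3.3) by an F test over time points, and p-values were adjusted by Benjamini-Hochberg over all genes tested. Thresholds were 0.01 for the wild-type response and 0.05 for differences between strains, and an estimate over a time course is the mean over time points that both strains had. Unless the mean over times is named, the adjusted p printed with such an estimate is that of the F test and does not test that mean. The procedure was tested on simulated data. Descriptions were computed with Python 3.11.15, numpy 2.4.6 and pandas 2.3.3.

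Groups were taken from the labels. Nothing in them says that all replicates came from separate cultures, so p-values measure the spread between these samples. A time with a single array per strain added nothing to that spread. Per-array values were given for a panel of 12 genes with each role represented and for the 3 genes with the largest and the 3 with the smallest difference of rpd3Δ from wild type at 30 min of H2O2, 16 genes in all, and other members were named by their calls. Same-numbered arrays of the strains deviated together in heat shock (6 pairs, r from 0.14 to 0.43), NaCl (4 pairs, 0.12 to 0.22) and relief (4 pairs, 0.50 to 0.61). Each such time had 2 arrays per strain, so its 2 pairs mirror each other and are not independent. In NaCl each course also had its own dye orientation, so the number and the dye cannot be told apart. The main fits carried no term for the number, which entered only as a block in an alternative. Alternatives were another scaling, the filter, dye orientation as a covariate, the replicate number as a block, each course alone, the mean over times in place of the F test, and each array left out.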

Additional observations from a re-analysis of the deposited data

Results flagged for a closer look

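In a group of 4 to 10 arrays, a highest or lowest array far from the rest was looked for in 32 gene and group combinations, and 6 were found. Only wild type (8 arrays) and ume6Δ (4 arrays) at 30 min of H2O2 had that many. No other strain or time was screened. Chance flags about 1 in 20 groups, but the genes share arrays and vary together, so the 32 are not independent, and all 6 came from 2 arrays. Of these, 3 came from ume6Δ replicate 4 at 30 min of H2O2. MPP10 was -0.16 there and -1.49 to -1.37 on the other ume6Δ arrays. ECM16 was -0.077, against -1.93 to -1.61, and BMS1 was -0.14, against -1.74 to -1.64. The other 3 came from wild-type replicate 8. UTP10 was -1.17 there and -3.31 to -2.67 on the other wild-type arrays. UTP20 was -1.35, against -3.46 to -2.47, and IMP3 was -1.49, against -3.58 to -2.93. Without wild-type replicate 8 the wild-type array medians averaged -2.49 ± 0.38 (SD).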

How the results depend on the processing

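Here and in the sections above, counts under alternative settings have no share of all genes beside them. They show how the calls moved, not how the members stand against other genes. With arrays scaled to one median absolute deviation, 0 members were called between rpd3Δ and wild type in heat shock and 0 in NaCl, and 10 between rco1Δ and wild type in the H2O2 course. Under that scaling the single-array differences were 0.043 for TSA at 15 min, 0.46 for the catalytic allele in H2O2 and 0.53 in heat shock, and NOP1 in relief turned to 0.10 in the difference of rpd3Δ from wild type. Among genes measured on all arrays of a fit, which left 20 members to test, the calls were 14 for rpd3Δ, 11 for pho23Δ and 20 for the wild-type response in the H2O2 course, and at 30 min 18 for rpd3Δ, 13 for pho23Δ, 18 and 9 for the triple mutant against wild type and against msn2/msn4, 8 for rco1Δ against rpd3Δ and 20 for the wild-type response. With no filter the difference of rpd3Δ from wild type had 8 calls in heat shock and 0 in NaCl. With dye orientation as a covariate the calls were 10 in NaCl, 1 for rco1Δ in the H2O2 course and 19 in unstressed cells, where replicates 1 and 2 share an orientation and only their spread remains. In NaCl each course had its own dye orientation, so this covariate and the replicate block are the same fit, not 2 separate alternatives. With each course alone the difference of rpd3Δ from wild type had 7 and 0 calls in heat shock and 0 and 33 in NaCl, and with the mean over times 33 in heat shock and 36 in NaCl. The cause of these shifts was not tested.

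With the replicate number as a block the calls were 10 in NaCl, 3 for rco1Δ in the H2O2 course and 1 for msn2/msn4. Same-numbered arrays deviated by r from -0.48 to 0.45 in H2O2 (64 pairs) and from -0.05 to 0.10 in H4KQ and NSY429 (3 pairs). Both signs occurred, so no steady pairing by number was seen there. Times with a single array per strain could not be checked in this way.

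Leaving out 1 array at a time gave these ranges of calls. For rpd3Δ against wild type they were 0 to 23 in heat shock, 0 to 24 in NaCl, 30 to 42 in the H2O2 course and 36 to 45 at 30 min. For pho23Δ they were 20 to 39 in the course and 20 to 44 at 30 min, and for rco1Δ 0 to 15 in the course, the 15 without wild-type replicate 8, and 0 to 3 at 30 min. They were 0 to 8 for ume6Δ, 0 to 6 for msn2/msn4, 36 to 46 and 8 to 23 for the triple mutant against wild type and against msn2/msn4, 14 to 21 for rco1Δ against rpd3Δ, and 0 to 4 in unstressed cells. The wild-type response had 34 to 40 in heat shock, 27 to 42 in NaCl, 46 to 47 in the H2O2 course and 47 at 30 min. The median difference of rco1Δ from wild type in the course ran from -0.090, without the 20 min array of either strain, to 0.59. Counts of 0 in relief, H4KQ against NSY429, pho23Δ and the triple mutant against rpd3Δ, and the test of unequal RPD3 effect were 0 in each such fit. With H4KQ in one fit with all strains, an alternative chosen after seeing the data, 0 of 47 were called. Over the other settings 415 differences of named genes kept their direction and side of the threshold, 25 passed it, 31 lost it and 1 reversed.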
